A study of Mus musculus with 72 samples.

Results

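Sarcoplasmic reticulum calcium handling genes were examined in the hearts of mice that lack Gnb5, the gene of the G-protein subunit Gβ5. The set holds 10 genes of the 53715 gene identifiers in the count files, chosen by name for their place in the store, release and removal of calcium: Atp2a2, Pln, Sln, Casq1, Casq2, Trdn, Asph, Hrc, Jph2 and Slc8a1. RNA was sequenced from whole atria (left and right together, nodal tissue included) and whole ventricles of 18 male mice of 18 weeks on a C57BL/6J background. There were 6 Gnb5+/+ (wild type), 6 Gnb5+/- (heterozygous) and 6 Gnb5-/- mice, and the mutant allele is a germline deletion of exon 3, present in every cell from conception. Cerebellum, hippocampus and cortex of the same Gnb5+/+ and Gnb5-/- mice, 36 further libraries, served as background. Every group held 6 libraries, each from a separate mouse.

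In a heart muscle cell, each beat is started by calcium that enters through channels of the plasma membrane and opens ryanodine receptors, the release channels of the sarcoplasmic reticulum. Relaxation follows when the pump SERCA2 returns calcium to the store and the sodium-calcium exchanger expels the rest. Proteins that bind calcium inside the store add to its capacity. Phospholamban and sarcolipin are small membrane proteins that slow the pump, and adrenergic signalling lifts the brake that phospholamban applies. Sarcolipin is known as an atrial transcript in the mouse heart and calsequestrin 1 as the calsequestrin of fast skeletal muscle.

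Heart libraries held 29355469 to 46118252 reads assigned to genes and brain libraries 29204390 to 48807435. The targeted gene followed the labels, with means of 33.2, 17.4 and 2.06 CPM (read counts relative to library size, scaled with TMM factors over all 72 libraries) in Gnb5+/+, Gnb5+/- and Gnb5-/- atria and of 29.2, 15.2 and 1.501 in ventricles. All 7 atrial muscle markers and all 6 ventricular muscle markers were detected above 1 CPM in the median library of their own chamber. The atrial markers summed to between 26470 and 45070 CPM in atria and to between 265 and 637 CPM in ventricles. The ventricular markers summed to between 13100 and 22380 CPM in ventricles and to between 99.7 and 1374 CPM in atria, and the sum of 3 neuronal markers did not exceed 9.56 CPM in any heart library. Of the libraries that stood apart in ways that touch the genes described here, 6 are described next. In Gnb5+/- ventricular replicate 4 (mouse 4), Gnb5-/- cerebellar replicate 2 (mouse 12) and Gnb5-/- cortical replicates 3 and 5 (mice 14 and 3) an unusually small share of reads lay outside genes, and the hippocampal and cerebellar libraries of Gnb5+/+ mouse 8 held cardiac transcripts. Several fold changes of Atp2a2, Slc8a1, Pln and Jph2 that they touch are given with and without these libraries. Fold changes between genotypes in ventricles are given with all libraries only. Among atria, Gnb5+/+ replicate 2 (mouse 16) held the highest sum of ventricular markers, 1374 CPM, and the highest Pln and Trdn of its group. No fit was made without it. Gnb5-/- atrial replicate 4 (mouse 1) held the skeletal muscle marker Myh4 at 8.38 CPM, which was at 0 counts in the rest of its group.

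Both small pump inhibitors are encoded by short reading frames, each within a single exon. Sln (ENSMUSG00000042045) lies on the forward strand of chr9:53850164-53854560 of GRCm38, and its coding sequence of 96 bases, 31 codons before the stop, at chr9:53853473-53853568. Pln (ENSMUSG00000038583) lies on the forward strand of chr10:53337667-53345987, and its coding sequence of 159 bases, 52 codons before the stop, at chr10:53343864-53344022, was identical in all 6 annotated coding transcripts. They are shown because these genes differed most between the chambers, in opposite directions. Sequences are from GRCm38 with the GENCODE M21 annotation, 5′ to 3′, with the start and stop codons in capitals.
Sln: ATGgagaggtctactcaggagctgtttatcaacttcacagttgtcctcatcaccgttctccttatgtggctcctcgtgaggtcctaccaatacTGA
Pln: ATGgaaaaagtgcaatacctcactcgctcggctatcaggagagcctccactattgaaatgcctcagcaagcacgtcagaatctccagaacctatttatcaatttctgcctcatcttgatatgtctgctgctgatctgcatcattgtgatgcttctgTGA

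In wild-type hearts, sarcolipin transcripts were abundant in atria and scarce in ventricles. Phospholamban and most of the other genes were lower in atria after TMM scaling. On plain library totals Atp2a2, Casq2 and Trdn changed sign in every genotype, and Casq1 was not called in Gnb5+/+ and Gnb5-/- mice. Of the 10 genes, 1 was higher in atria, where 27.2% of the 16507 genes tested were, and 7 were lower, where 27.1% were (edgeR quasi-likelihood test with the mouse as a block, Benjamini-Hochberg adjusted p below 0.05). The counts were the same in Gnb5+/- mice (1 higher beside 30.2% of all genes, 7 lower beside 29.0%) and in Gnb5-/- mice (1 higher beside 29.4%, 7 lower beside 28.7%). The median log2 fold change of the 10 genes between atria and ventricles was -0.40, -0.56 and -0.46 in Gnb5+/+, Gnb5+/- and Gnb5-/- mice, beside medians of 0.0027, 0.025 and 0.015 over all genes tested. In these bulk samples fewer cells of a type and less RNA per cell cannot be told apart.

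**Figure D1:**
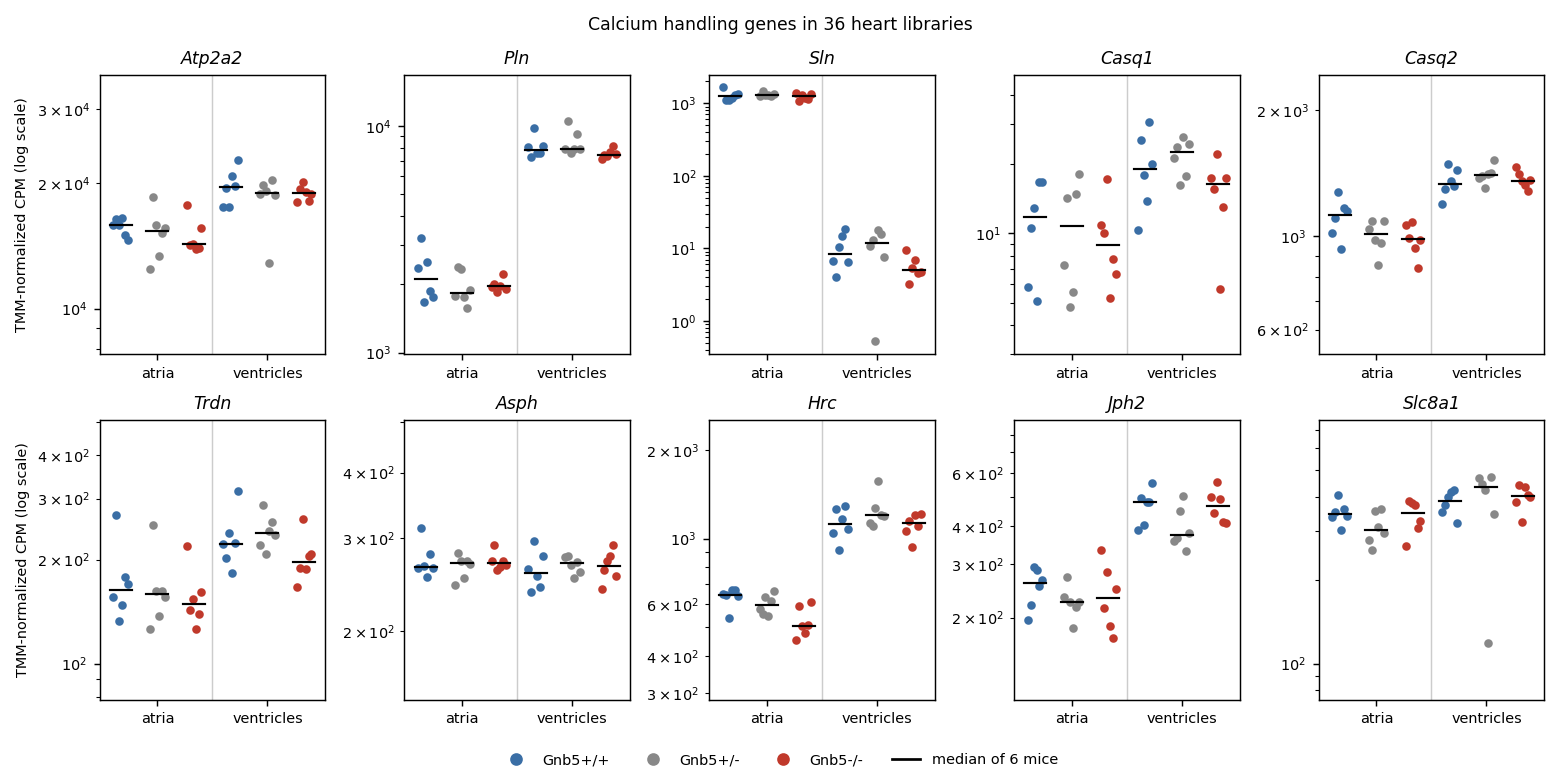
TMM-normalized CPM of the 10 genes on log axes (y) in the 36 heart libraries, by chamber and genotype (x), 1 point per mouse with the median of 6 mice as a line. Sln sat at 1074 CPM or more in all atria and at 18.5 CPM or less in all ventricles, Pln showed the opposite order, and the 3 genotypes overlapped in every panel.

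By median per length, the pump itself was the most abundant of the 10 transcripts in each heart group, although in Gnb5+/- ventricles the mean of Pln (3087 CPM per kilobase) lay above that of Atp2a2 (3003). Atp2a2 (ENSMUSG00000029467, chr5:122453513-122502225, reverse strand) encodes SERCA2, which pumps calcium back into the sarcoplasmic reticulum. In Gnb5+/+ mice its lowest, median and highest values were 14560, 15870 and 16480 CPM in atria and 17520, 19540 and 22700 CPM in ventricles, so the chambers did not overlap. In Gnb5+/- mice the values were 12460, 15370 and 18460 CPM in atria and 12890, 18940 and 20300 CPM in ventricles, and in Gnb5-/- mice 13880, 14240 and 17680 against 18000, 18920 and 20070 CPM. The Gnb5+/- chambers overlapped, mainly through ventricular replicate 4, the lowest library of its group. Atrial and ventricular Atp2a2 differed on the log2 scale by -0.35 (SE 0.0996, adjusted p = 0.0045) in Gnb5+/+, -0.30 (SE 0.0997, adjusted p = 0.012) in Gnb5+/- and -0.38 (SE 0.0996, adjusted p = 0.0023) in Gnb5-/- mice, but on plain library totals the values were 0.11, 0.33 and 0.18, and the Gnb5+/- difference was called in the opposite direction. Without ventricular replicate 4 the Gnb5+/- difference was -0.36 (adjusted p = 0.0031).

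Sarcolipin showed the widest difference between chambers. Sln ranged from 1101 to 1662 CPM with a median of 1248 in Gnb5+/+ atria and from 4.00 to 18.5 CPM with a median of 8.49 in Gnb5+/+ ventricles. In Gnb5+/- mice it ranged from 1240 to 1497 CPM (median 1291) in atria and from 0.525 to 18.1 CPM (median 11.8) in ventricles. In Gnb5-/- mice it ranged from 1074 to 1365 CPM (median 1243) in atria and from 3.26 to 9.51 CPM (median 5.04) in ventricles. The chambers were thus far apart in all 3 genotypes, and the atrial libraries of a group spread far less on a relative scale than the ventricular ones. The fold change between atria and ventricles was 136-fold (log2 7.08, SE 0.41), 135-fold (log2 7.08, SE 0.41) and 219-fold (log2 7.77, SE 0.42) in Gnb5+/+, Gnb5+/- and Gnb5-/- mice, with adjusted p of 7.4e-13, 7.0e-13 and 2.1e-13 and a higher atrial value in 6 of 6 mice each.

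Phospholamban ran the other way. Pln had lowest, median and highest values of 1670, 2124 and 3197 CPM in Gnb5+/+ atria and of 7333, 7831 and 9766 CPM in Gnb5+/+ ventricles. The Gnb5+/- values were 1579, 1832 and 2397 against 7587, 7916 and 10540 CPM, and the Gnb5-/- values 1859, 1960 and 2219 against 7116, 7472 and 8172 CPM. No atrial library reached the ventricular range in any genotype. Atrial Pln was 3.79-fold lower (log2 -1.92, SE 0.13), 4.48-fold lower (log2 -2.16, SE 0.13) and 3.89-fold lower (log2 -1.96, SE 0.13) in Gnb5+/+, Gnb5+/- and Gnb5-/- mice, with adjusted p of 1.7e-11, 1.9e-12 and 8.7e-12. Exons of Pln overlap those of 2 genes on the opposite strand, Cep85l over 141 bases and Gm47644 over 1644 bases, and the strand setting of the counting was not given in the sources used here. Over all 72 libraries Gm47644 came to 505 counts and Cep85l to 85360 counts, while Pln held between 36 and 205 counts in the brain libraries other than those of mouse 8. The part of the overlap in the level of Pln was not tested.

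Set against the pump, both inhibitors changed places between the chambers. Per kilobase of exon, Pln stood at a median of 30.3%, 28.8% and 29.9% of Atp2a2 in Gnb5+/+, Gnb5+/- and Gnb5-/- atria and at 84.3%, 96.7% and 87.5% in ventricles. Sln stood at 36.8%, 38.8% and 38.2% of Atp2a2 in atria and at 0.224%, 0.283% and 0.120% in ventricles. These are ratios within a library, so the scaling between libraries does not enter them, and they compare transcripts, not proteins. In atria Sln ranked above Pln per length. Their ranges overlapped in Gnb5+/+ mice (835 to 1261 and 605 to 1159 CPM per kilobase) and did not in the other genotypes. That order rests on the length, the union of all annotated exons of a gene (1318 bases for Sln and 2759 for Pln). By CPM alone the mean of Pln was the higher in every atrial group (2234 beside 1285 CPM in Gnb5+/+ mice). In ventricles the ranges of Atp2a2 and Pln overlapped in all 3 genotypes (2881 to 3732 and 2658 to 3540 CPM per kilobase in Gnb5+/+ mice), and Sln was the lowest of the 10 genes, with a range that overlapped that of Casq1.

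Among the proteins that bind calcium inside the store, Hrc, the histidine-rich calcium binding protein, was lower in atria without overlap. It had lowest, median and highest values of 538, 645 and 669 CPM in Gnb5+/+ atria and of 912, 1122 and 1292 CPM in Gnb5+/+ ventricles. In Gnb5+/- mice they were 548, 597 and 664 against 1102, 1197 and 1572 CPM, and in Gnb5-/- mice 455, 506 and 610 against 933, 1127 and 1214 CPM. Its log2 fold change was -0.86 (SE 0.084, adjusted p = 6.9e-09), -1.08 (SE 0.084, adjusted p = 1.2e-10) and -1.12 (SE 0.084, adjusted p = 6.6e-11) in Gnb5+/+, Gnb5+/- and Gnb5-/- mice.

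Calsequestrin 2, the main calcium buffer of the cardiac store, differed less. Casq2 ranged from 935 to 1278 CPM (median 1125) in Gnb5+/+ atria and from 1197 to 1489 CPM (median 1335) in Gnb5+/+ ventricles, ranges that overlapped. In Gnb5+/- mice it ranged from 856 to 1088 CPM (median 1012) and from 1304 to 1516 CPM (median 1398), and in Gnb5-/- mice from 840 to 1082 CPM (median 988) and from 1285 to 1458 CPM (median 1357), without overlap in either genotype. The log2 fold change of Casq2 was -0.32 (SE 0.073), -0.52 (SE 0.073) and -0.51 (SE 0.073) with adjusted p of 0.00070, 1.9e-06 and 2.4e-06, but it was 0.14, 0.11 and 0.046 on library totals.

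Calsequestrin 1 was a minor transcript of both chambers. Casq1 ranged from 5.08 to 16.7 CPM (median 11.7) in Gnb5+/+ atria and from 10.4 to 30.7 CPM (median 19.0) in Gnb5+/+ ventricles, from 4.79 to 18.1 CPM (median 10.8) and from 16.2 to 26.3 CPM (median 22.5) in Gnb5+/- mice, and from 5.26 to 17.2 CPM (median 8.91) and from 5.73 to 22.2 CPM (median 16.5) in Gnb5-/- mice. All 3 pairs of ranges overlapped, yet the atrial value was the lower in 6 of 6 mice of each genotype. The log2 fold change was -0.88 (SE 0.20), -1.17 (SE 0.20) and -0.69 (SE 0.20) with adjusted p of 0.00074, 3.3e-05 and 0.0055. On library totals it was -0.42 in Gnb5+/+ and -0.14 in Gnb5-/- mice, with adjusted p of 0.0755 and 0.565, so those calls rest on the TMM scaling.

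The scaffold genes of the release site split into those that were lower in atria and 1 that was level. Jph2, which tethers the sarcoplasmic reticulum to the plasma membrane, had lowest, median and highest values of 197, 261 and 294 CPM in Gnb5+/+ atria and of 388, 481 and 554 CPM in Gnb5+/+ ventricles. The Gnb5+/- values were 185, 225 and 271 against 332, 373 and 504 CPM, and the Gnb5-/- values 172, 232 and 333 against 409, 466 and 558 CPM. The chambers did not overlap in any genotype. The log2 fold change of Jph2 was -0.92 (SE 0.12, adjusted p = 5.0e-07), -0.84 (SE 0.12, adjusted p = 1.7e-06) and -1.03 (SE 0.12, adjusted p = 8.3e-08), and it kept its sign on library totals, though in Gnb5+/- mice not the call (-0.21, adjusted p = 0.16).

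Triadin, which links calsequestrin to the ryanodine receptor, showed a small difference and wide groups. Trdn ranged from 133 to 269 CPM (median 163) in Gnb5+/+ atria and from 182 to 316 CPM (median 223) in Gnb5+/+ ventricles, from 126 to 251 CPM (median 159) and from 207 to 287 CPM (median 239) in Gnb5+/- mice, and from 126 to 220 CPM (median 149) and from 167 to 263 CPM (median 197) in Gnb5-/- mice. The ranges overlapped in every genotype, with 1 high atrial library in each. The log2 fold change was -0.45 (SE 0.14), -0.60 (SE 0.14) and -0.42 (SE 0.14) with adjusted p of 0.010, 0.00082 and 0.015, but on library totals it was 0.011, 0.026 and 0.14.

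Asph was level between the chambers after TMM scaling. Its locus encodes junctin and junctate, relatives of triadin and of calcium binding proteins, as well as an aspartate hydroxylase, and gene counts do not separate these products. The medians of its 6 heart groups lay between 258 and 270 CPM, the lowest library held 237 CPM and the highest 314 CPM, and the coefficient of variation within a group was between 3.70% and 8.54%. The log2 fold change between chambers was 0.028, -0.048 and -0.0057 (SE 0.076 each) in Gnb5+/+, Gnb5+/- and Gnb5-/- mice and did not pass the test (adjusted p 0.78, 0.60 and 0.96), but on library totals it was 0.49, 0.58 and 0.55, all called. Exons of Asph share 2302 bases, 14.3% of its exon length, with Clvs1 on the opposite strand, which held 132802 counts over all 72 libraries, and the part of that overlap in the level of Asph was not tested.

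Slc8a1 encodes the sodium-calcium exchanger of the plasma membrane, which expels calcium as the cell relaxes. It ranged from 303 to 407 CPM (median 347) in Gnb5+/+ atria and from 321 to 424 CPM (median 387) in Gnb5+/+ ventricles, from 257 to 361 CPM (median 305) and from 118 to 473 CPM (median 433) in Gnb5+/- mice, and from 265 to 386 CPM (median 350) and from 324 to 441 CPM (median 404) in Gnb5-/- mice. The value of 118 CPM belonged to Gnb5+/- ventricular replicate 4. With all libraries the log2 fold changes of -0.15 (95% interval -0.51 to 0.21), -0.22 (-0.59 to 0.15) and -0.27 (-0.63 to 0.094) were not called, with adjusted p of 0.48, 0.29 and 0.20. Without replicate 4 they were -0.15, -0.51 and -0.26, and 2 of them were called, with adjusted p of 0.00018 in Gnb5+/- and 0.018 in Gnb5-/- mice, so that single library decides whether 8 or 9 of the 10 genes passed in those genotypes. On library totals the 3 values were 0.31, 0.41 and 0.29, the opposite direction.

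**Figure D2:**
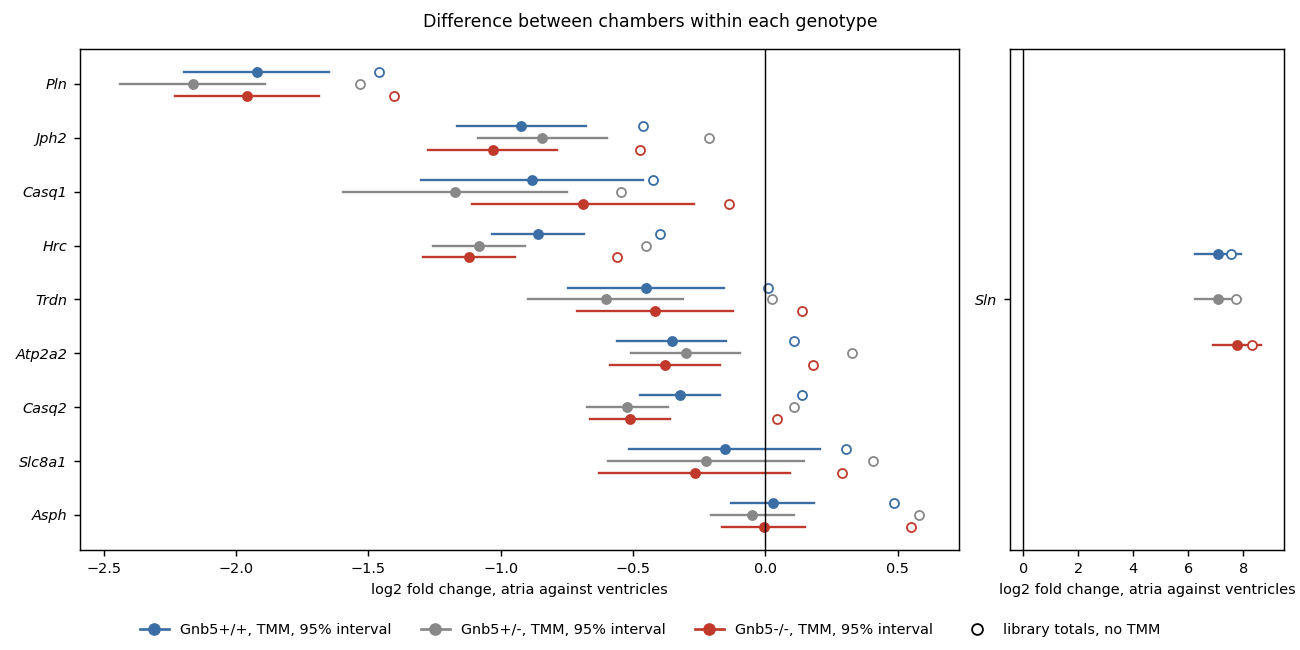
Log2 fold change between atria and ventricles (x) for each gene (y) in the 3 genotypes, with 95% intervals after TMM scaling (filled points) and the value on plain library totals (open points), Sln in a panel of its own. Sln at 7.08 to 7.77 and Pln at -2.16 to -1.92 kept their side under both scalings, as did Hrc, Jph2 and Casq1, while the open points of Atp2a2, Casq2, Trdn and Slc8a1 lay above 0.

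The share of mitochondrial transcripts, which enters library totals, differed between the chambers. Genes of the mitochondrial genome took between 14.1% and 34.5% of the counts in atria and between 26.5% and 44.8% in ventricles, and dividing by library totals moved the median log2 fold change of all genes to 0.46, 0.66 and 0.57 in Gnb5+/+, Gnb5+/- and Gnb5-/- mice. With library totals, 86.1%, 89.7% and 87.5% of the genes called were higher in atria, beside 50.1%, 51.0% and 50.7% after TMM. The differences reported here are therefore relative to the median gene. Fibroblast markers (3 of 3 detected) also differed, with median sums of 1573 to 1781 CPM in atria and 832 to 1010 CPM in ventricles, and the 7 markers common to all heart muscle had median sums of 49790 to 54680 CPM in atria and 65150 to 66820 CPM in ventricles. Endothelial markers (3 of 3 detected) had median sums of 734 to 750 CPM in atria and 999 to 1009 CPM in ventricles, smooth muscle markers (4 of 4) 419 to 440 and 410 to 430 CPM, and adipocyte markers (3 of 4 in atria and 0 of 4 in ventricles above 1 CPM) 10.5 to 22.9 and 1.47 to 3.12 CPM. The part of these differences in the values above was not tested.

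Ranges that did not overlap between atria and ventricles were found for Atp2a2, Pln, Sln, Hrc and Jph2 in Gnb5+/+ mice, beside 28.1% of all genes tested. In Gnb5+/- mice they were found for Pln, Sln, Casq2, Hrc and Jph2, beside 34.1%, and in Gnb5-/- mice for Atp2a2, Pln, Sln, Casq2, Hrc and Jph2, beside 37.6%.

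Other genes of the calcium cycle were taken as a list of 50, of which 48 were tested between chambers. In Gnb5+/+ mice 11 were higher in atria, 19 were lower and 18 did not pass. The counts were 13, 23 and 12 in Gnb5+/- mice and 12, 21 and 15 in Gnb5-/- mice, and 36 of the 48 genes had the same outcome in all 3 genotypes, 10 of them higher and 17 lower. The strongest by adjusted p were all higher in atria. Ryr3, a ryanodine receptor isoform, was at 89.7 ± 10.4 CPM (SD, n = 6) in Gnb5+/+ atria and 4.84 ± 0.86 CPM in ventricles (log2 fold change 4.19, SE 0.15). Cacna1h, a T-type calcium channel, was at 337 ± 49.4 and 23.1 ± 8.54 CPM (log2 3.90, SE 0.20), and Cacna1d, an L-type channel of pacemaker and atrial cells, at 26.3 ± 3.58 and 2.88 ± 0.49 CPM (log2 3.15, SE 0.15).

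Strit1, which encodes a small peptide that promotes the activity of the pump, and Atp2a1, which encodes the fast skeletal pump SERCA1, were singled out after their values were seen. Strit1 (listed as Gm34302 in the annotation) held between 0 and 22 counts in Gnb5+/+ atrial libraries (at most 0.746 CPM) and between 131 and 1386 counts in Gnb5+/+ ventricular libraries (6.16 to 51.9 CPM). In Gnb5+/- mice it held at most 7 counts in atria and 69 to 487 in ventricles, and in Gnb5-/- mice at most 2 and 69 to 1299, so its order between the chambers was opposite to that of Sln. Atp2a1, which is also among the skeletal muscle markers, was higher in atria in all 3 genotypes (log2 fold change 4.27, SE 0.31, 4.10, SE 0.30, and 4.85, SE 0.34).

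Windows of 230 bases before the start of transcription were read from the RefSeq promoter table (GRCm38.p6), which matched 6 of the 10 genes: Casq1, Casq2, Hrc, Jph2, Pln and Slc8a1. Atp2a2, Sln, Trdn and Asph were not matched. Both strands were searched for GATAA, the core bound by GATA factors, which reads TTATC on the other strand, for CAGCTG, an E-box, and for the MEF2 element. GATAA was found in the windows of Casq1, Hrc, Pln and Slc8a1, beside 21.5% of 32851 promoters. CAGCTG was found at Casq1 and in 1 window of Jph2 but not in its other window, beside 11.8%. The MEF2 element was found at Casq2, beside 2.76%. The 6 matched genes held 7 windows, and the shares count promoters, not genes. The windows of Pln, Hrc and Casq2, genes that were lower in atria after TMM scaling (Casq2 not on library totals), are printed with these matches in capitals, from 250 to 21 bases before the start and in the direction of the gene. A match is a run of letters and was not tested as a binding site. Pln is at chr10:53337436-53337665 on the forward strand, Hrc at chr7:45335019-45335248 on the forward strand and Casq2 at chr3:102086165-102086394 on the forward strand.
Pln: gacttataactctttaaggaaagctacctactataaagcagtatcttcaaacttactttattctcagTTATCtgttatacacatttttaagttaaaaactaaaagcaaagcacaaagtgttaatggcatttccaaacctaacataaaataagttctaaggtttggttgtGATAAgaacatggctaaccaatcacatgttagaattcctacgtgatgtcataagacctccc
Hrc: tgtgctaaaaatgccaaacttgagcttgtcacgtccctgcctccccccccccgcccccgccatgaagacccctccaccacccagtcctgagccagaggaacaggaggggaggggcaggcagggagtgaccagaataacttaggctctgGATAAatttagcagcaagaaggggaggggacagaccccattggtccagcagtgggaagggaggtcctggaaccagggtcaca
Casq2: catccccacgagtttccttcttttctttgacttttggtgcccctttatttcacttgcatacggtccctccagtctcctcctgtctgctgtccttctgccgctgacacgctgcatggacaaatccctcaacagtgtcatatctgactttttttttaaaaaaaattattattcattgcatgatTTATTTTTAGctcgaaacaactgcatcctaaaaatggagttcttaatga

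Loss of Gnb5 left no called change in any of the 10 genes. Between Gnb5-/- and Gnb5+/+ mice, 0 of 10 genes passed the test in atria, where 0.253% of 16181 genes did, and 0 of 10 in ventricles, where 0.188% of 14866 genes did. The unadjusted p was below 0.05 for 2 members in atria and for 0 in ventricles, and DESeq2 called 0 in both. The ranges of Gnb5-/- and Gnb5+/+ mice overlapped for all 10 genes in both chambers, beside 0.661% of genes without overlap in atria and 0.552% in ventricles. Between Gnb5+/- and Gnb5+/+ mice, 0 of 10 were called in atria (0.0124% of all genes) and 0 of 10 in ventricles (0.0202%), with 0 and 1 at an unadjusted p below 0.05. Between Gnb5-/- and Gnb5+/- mice, 0 of 10 were called in atria (0.0494%) and 0 of 10 in ventricles (0.0874%), with 1 gene each at an unadjusted p below 0.05. DESeq2 called 0 of the 10 in these 4 comparisons as well.

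The atrial point estimates between Gnb5-/- and Gnb5+/+ mice were all below 0, from -0.27 for Hrc to -0.015 for Asph, with a median of -0.12 beside 0.00014 over all genes. On library totals 6 of the 10 were above 0 (Atp2a2, Sln, Trdn, Asph, Jph2 and Slc8a1). Hrc had the smallest p. Its Gnb5+/+ values of 538, 645 and 669 CPM and Gnb5-/- values of 455, 506 and 610 CPM (lowest, median and highest) overlapped, and the log2 fold change was -0.27 (SE 0.081, 95% interval -0.44 to -0.11, adjusted p = 0.28). The adjusted p of Hrc ranged from 0.11 to 0.54 over the alternatives tried. Casq2 followed at -0.18 (SE 0.083, 95% interval -0.35 to -0.0035, adjusted p = 0.60). The summed heart muscle markers had medians of 54680 CPM in Gnb5+/+ and 49790 CPM in Gnb5-/- atria. Those of the ventricular muscle markers were 435 and 274 CPM, and those of the atrial muscle markers 30740 and 31950 CPM. The part of these markers in the values above was not tested.

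The 95% intervals given here were not adjusted for the number of genes. For Atp2a2 the interval of the log2 fold change between Gnb5-/- and Gnb5+/+ mice was -0.26 to 0.11 in atria and -0.28 to 0.15 in ventricles. For Pln it was -0.47 to 0.12 and -0.31 to 0.091, for Casq2 -0.14 to 0.15 in ventricles, and for Asph -0.14 to 0.11 and -0.14 to 0.17. For Slc8a1 it was -0.26 to 0.17 in atria and -0.39 to 0.50 in ventricles. All of these crossed 0, unlike those of Hrc and Casq2 in atria, which left out 0 although neither gene was called. The 3 genotypes share 1 estimate of the spread, so Gnb5+/- replicate 4 entered the ventricular interval of Slc8a1. The SD of Slc8a1 was 40.0, 135.6 and 42.2 CPM in Gnb5+/+, Gnb5+/- and Gnb5-/- ventricles, and the interval without that library is not given here.

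In ventricles the estimate for Sln was the farthest from 0. Sln is the only member on the chromosome of Gnb5, 21.5 Mb away, and whether this bears on its estimate was not tested. Ventricular Sln ranged from 4.00 to 18.5 CPM in Gnb5+/+ and from 3.26 to 9.51 CPM in Gnb5-/- mice, ranges that overlapped, and the log2 fold change was -0.83 (SE 0.46, 95% interval -1.80 to 0.13, adjusted p = 1.00). Against Gnb5+/- mice it was -0.94 (SE 0.46, 95% interval -1.91 to 0.022, adjusted p = 0.58). Casq1 was at -0.38 (SE 0.25, 95% interval -0.91 to 0.15) and Trdn at -0.19 (SE 0.13, 95% interval -0.46 to 0.067) against Gnb5+/+ mice. The other 7 genes lay between -0.11 and 0.053. For Jph2 in Gnb5+/- ventricles the unadjusted p was 0.040 (log2 fold change -0.23, SE 0.11, adjusted p = 0.96), with a median of 373 CPM beside 481 CPM in Gnb5+/+ mice.

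**Figure D3:**
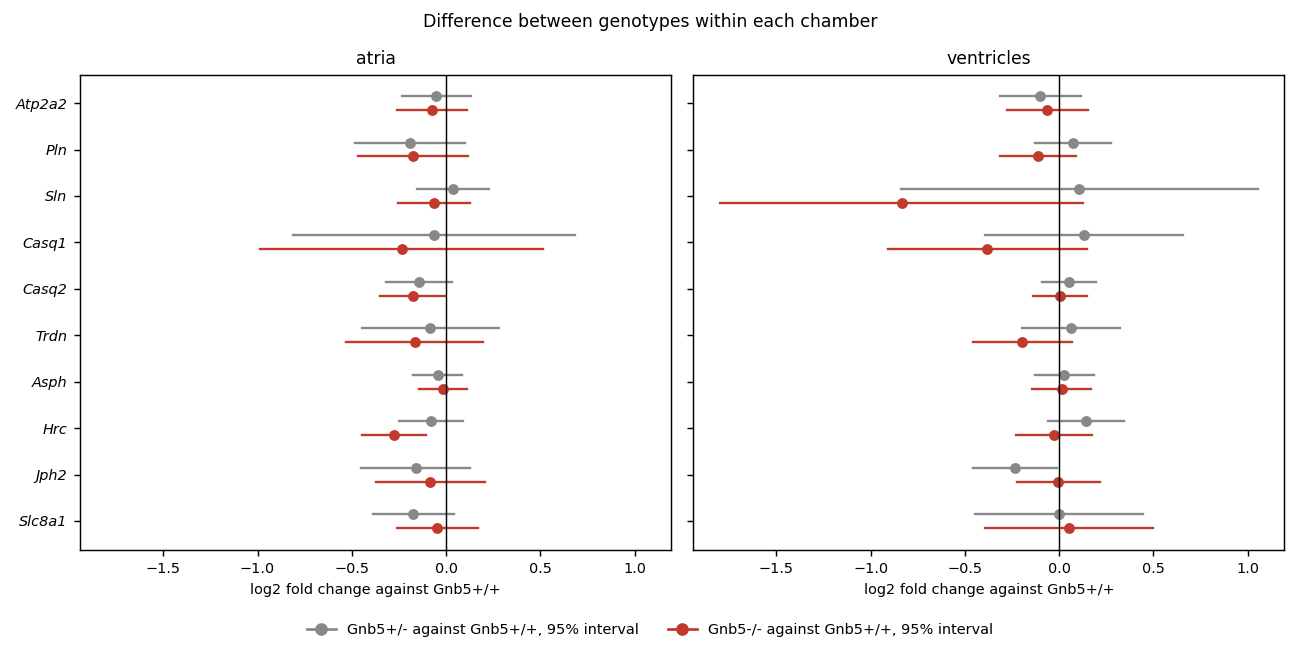
Log2 fold change against Gnb5+/+ mice (x) of the 10 genes (y) in atria and ventricles, for Gnb5+/- and Gnb5-/- mice, with 95% intervals. Most intervals cross 0, those of Sln in ventricles (-1.80 to 0.13 in Gnb5-/- mice) and Casq1 are the widest, and no gene was called.

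Whether the genotype acted differently in the chambers was tested directly. The Gnb5-/- effect differed between atria and ventricles for 0 of 10 genes in edgeR, beside 0.0% of 16507 genes, and the Gnb5+/- effect for 0 of 10, also beside 0.0%. The unadjusted p was below 0.05 for 640 and 865 genes in all, of which 1 and 0 were members of the set, and DESeq2 called 15 and 1 genes in all and 0 of the 10 in each. For Hrc, the 1 member, the Gnb5-/- effect was lower in atria than in ventricles by a log2 difference of -0.26 (SE 0.12, adjusted p = 1.0). For Sln the difference was 0.69 (SE 0.48, adjusted p = 1.0), and without a filter on low counts it was called, at 0.69 with an adjusted p of 0.0055, as were 97 of 31506 genes (0.308%). Of the 50 other calcium cycle genes, 0 of 47 tested in atria and 0 of 46 tested in ventricles were called between Gnb5-/- and Gnb5+/+ mice, with 6 and 4 at an unadjusted p below 0.05.

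Within ventricles, the level of Sln moved with the mean of other atrial muscle markers. Over the 18 ventricular libraries, log2 CPM of Sln correlated with the mean log2 CPM of Myl7, Myl4, Nppa, Bmp10, Dkk3, Kcnj3 and Stard10 (Pearson r = 0.78, permutation p = 0.00022, adjusted p = 0.00066 over 3 relations, Spearman rho = 0.84, permutation p = 5.0e-05, adjusted p = 0.00015, two-sided). Without the 2 libraries farthest from the median of the markers, Gnb5+/- replicate 3 and Gnb5+/+ replicate 3, r was 0.79, and without Gnb5+/- replicate 4 it was 0.77. Within Gnb5+/+, Gnb5+/- and Gnb5-/- mice r was 0.71, 0.96 and 0.84 (exact permutation p = 0.13, 0.019 and 0.039, n = 6 each). Spearman rho was 0.77, 0.66 and 0.77 (exact permutation p = 0.10, 0.175 and 0.10). With 6 mice, r passed 0.05 in 2 of the 3 genotypes and rho in 0 of 3. The markers were chosen with earlier results of these data known, and the adjustment over 3 relations does not cover that choice. Gnb5+/- replicate 3 had the lowest Sln (0.525 CPM) and the lowest sum of atrial markers (265 CPM). Of the 7 markers, 6 had medians above 1 CPM in each ventricular group. The exception, Bmp10, had medians of 0.098, 0.312 and 0.250 CPM in Gnb5+/+, Gnb5+/- and Gnb5-/- ventricles and stood at 16.3 CPM in Gnb5+/+ replicate 3.

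**Figure D4:**
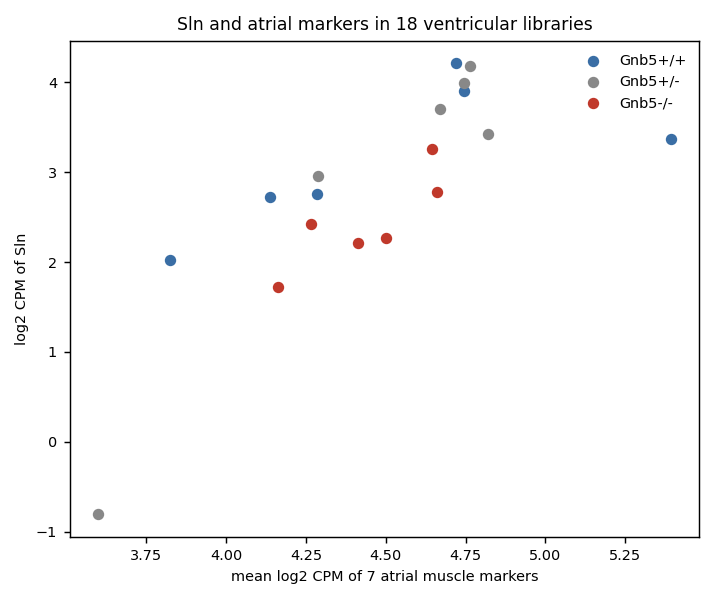
Log2 CPM of Sln (y) against the mean log2 CPM of 7 atrial muscle markers (x) in the 18 ventricular libraries, 1 point per mouse, coloured by genotype. Points rise from lower left to upper right (r = 0.78), and Gnb5+/- replicate 3 sits alone at the lower left.

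Casq1 showed no such relation with 11 skeletal muscle markers, most of which lay under 1 CPM. Medians above 1 CPM were found for 5 of the 11 in each atrial group. In Gnb5+/+, Gnb5+/- and Gnb5-/- ventricles they were found for 2, 2 and 0. A mean of markers this low could hardly follow skeletal muscle content, so the absence of a relation decides little. Over 18 libraries r was 0.35 in ventricles (permutation p = 0.15, adjusted p = 0.23, rho = 0.25) and -0.28 in atria (permutation p = 0.32, adjusted p = 0.32, rho = -0.086), and in atria r was 0.25 without the 2 libraries farthest from the median of the markers. Within genotypes r lay between -0.15 and 0.32 in ventricles (exact permutation p 0.52 to 0.83) and between -0.64 and 0.21 in atria (exact permutation p 0.22 to 0.95). The skeletal markers summed to between 21.6 and 76.1 CPM in atria and between 2.71 and 8.04 CPM in ventricles. The order of this sum between chambers was opposite to that of Casq1, but not every marker shared it. Atp2a1 had the highest atrial median of the 11 in each genotype, and Tnni2, Actn3, Tnnt3 and Pvalb were also higher in atria by median. In Gnb5+/+ mice the medians of Mylpf and Tnnc2 were higher in ventricles. Those of Myh1, Myh2, Myh4 and Myog lay far under 1 CPM in both chambers.

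Brain served as background for the level of these genes in heart. All 10 were higher in Gnb5+/+ atria and in Gnb5+/+ ventricles than in the mean of cerebellum, hippocampus and cortex, where 40.9% of 19477 genes were higher in atria and 39.2% in ventricles (edgeR with the mouse as a block). In atria the log2 fold change ran from 1.22 (SE 0.046) for Asph to 12.98 (SE 0.23) for Sln, and in ventricles from 1.12 (SE 0.046) for Asph to 12.01 (SE 0.43) for Pln. Ventricular Sln, at 5.84 (SE 0.27), was still above brain, where its means were 0.360, 0.160 and 0.075 CPM in Gnb5+/+ cerebellum, hippocampus and cortex. On library totals the difference of Asph between ventricles and brain was 0.077 and no longer called. Of the 50 other calcium cycle genes, 22 were higher and 22 lower in atria than in brain, and 21 were higher and 25 lower in ventricles. The strongest were Srl (7.27), Ryr1 (-8.05) and S100a1 (4.69) in atria and Srl (7.37), S100a1 (5.39) and Cav3 (8.57) in ventricles, as log2 fold changes. Ryr1 had a mean of only 0.194 CPM in Gnb5+/+ atria.

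The members differed in how far brain shared them. Asph in cerebellum, with medians of 280 CPM in Gnb5+/+ and 282 CPM in Gnb5-/- mice, lay within the range of the heart groups, and it stood at 85.2 and 67.8 CPM in Gnb5+/+ hippocampus and cortex. Atp2a2, which is not limited to muscle, had Gnb5+/+ medians of 1338, 808 and 770 CPM in cerebellum, hippocampus and cortex, and Slc8a1 of 19.2, 27.96 and 21.8 CPM. Casq2 had a Gnb5+/+ median of 32.7 CPM in cerebellum (27.1 to 36.9) beside 2.13 CPM in hippocampus and 2.68 CPM in cortex. Hrc, Jph2, Casq1 and Sln had medians under 1 CPM in each brain group. Trdn was at 0 counts in 5 of 6 Gnb5+/+ and 6 of 6 Gnb5-/- cerebellar libraries, where the limit set by 3 counts is between 0.0454 and 0.0582 CPM and covers counting error only.

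Brain genotype comparisons called 0 of the 8, 7 and 8 members tested in cerebellum, hippocampus and cortex, beside 0.0817%, 0.165% and 0.0557% of all genes. Trdn and Hrc were not tested in cerebellum, Casq1, Trdn and Hrc in hippocampus, and Sln and Casq1 in cortex. There were 0, 2 and 0 members at an unadjusted p below 0.05, and DESeq2 called 0 in each tissue. Both in hippocampus, Pln (log2 fold change -2.22, SE 0.82, adjusted p = 0.55) and Jph2 (-0.96, SE 0.43, adjusted p = 0.64), were set by the library of Gnb5+/+ mouse 8, without which they were -0.30 and -0.30. In cerebellum Pln was at -1.29 with and at 0.15 without the library of that mouse.

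That mouse's hippocampal and cerebellar libraries held cardiac muscle transcripts. Myh6, the main myosin of the adult mouse heart, was at 106.7 CPM in its hippocampal library, where the other 11 hippocampal libraries did not exceed 0.549 CPM, and at 31.2 CPM in its cerebellar library, where the other 11 did not exceed 0.406 CPM. Pln was at 36.1 and 10.4 CPM in these libraries, where the others did not exceed 3.51 and 1.48 CPM. The excess over the median of the other hippocampal libraries, as a share of the ventricular library of the same mouse, was 0.425% for Pln, 0.381% for Hrc, 0.368% for Jph2, 0.358% for Casq2, 0.326% for Trdn and 0.347% for Myh6. For the other members it was 0.519% for Atp2a2, 0.447% for Asph, 1.04% for Casq1, 1.82% for Slc8a1 and -1.27% for Sln. The ventricular myosin light chain Myl2 was at 33.7 CPM in the hippocampal library and the atrial light chain Myl7 at 0.122 CPM, while Sln, at 0.102 CPM, lay within the range of the other libraries. Without both libraries the heart genes were farther above brain, Trdn by a log2 fold change of 12.09 in place of 10.14 in atria, Hrc by 11.67 in place of 10.78 and Pln by 10.66 in place of 10.22.

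The libraries with few reads outside genes were low in Slc8a1 and Atp2a2 and not in Asph. In Gnb5+/- ventricular replicate 4, 2.85% of reads lay outside genes (4.41% to 5.71% in the other 17 ventricular libraries), Slc8a1 was at 118 CPM, 29.2% of the median of the others, and Atp2a2 at 12890 CPM, 67.5%. In Gnb5-/- cerebellar replicate 2 the share was 8.02% (14% to 17% in the other 11), Slc8a1 was at 0.912 CPM, 4.85% of the others' median of 18.8 CPM, and Atp2a2 at 43.9%. In Gnb5-/- cortical replicates 3 and 5 the shares were 6.86% and 8.32% (13.1% to 15.6% in the other 10), Slc8a1 was at 3.15% and 20.97% of the others' median and Atp2a2 at 43.4% and 69.5%. The ventricular and cerebellar libraries had the lowest Slc8a1 of their tissue, and the cortical pair the 2 lowest of theirs. Asph was at 94.6%, 106%, 113% and 113% of the others' median, Pln at 103%, 162%, 120% and 77.8%, and the part of the reads outside genes in these levels was not tested.

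**Figure D5:**
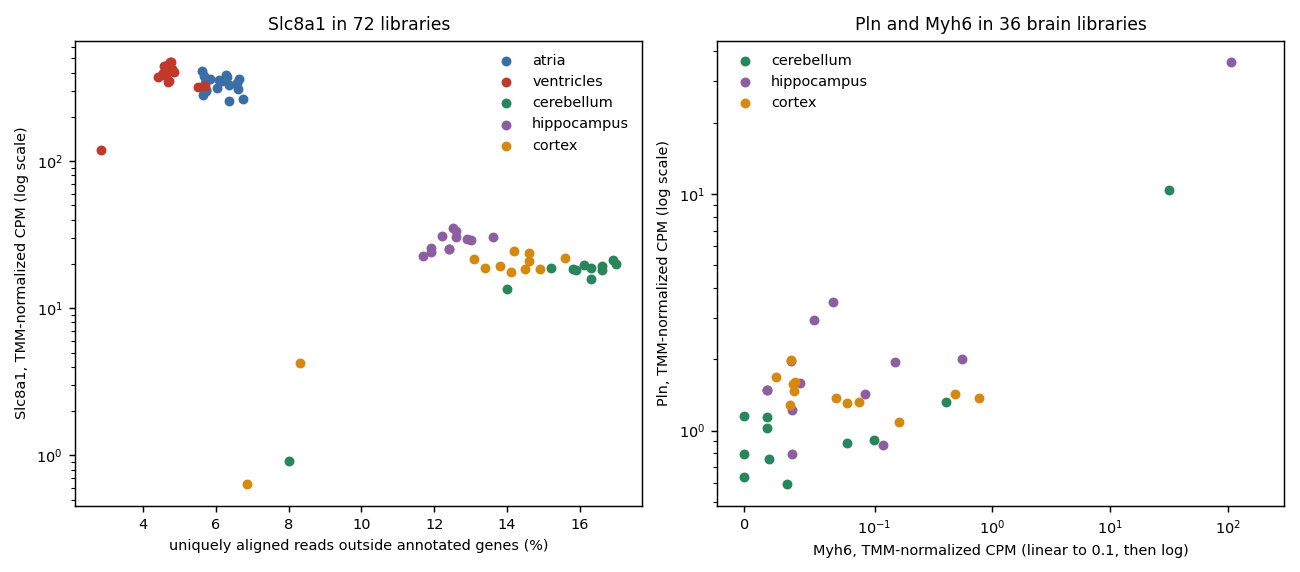
Left, Slc8a1 in TMM-normalized CPM (log axis, y) against the percentage of uniquely aligned reads outside annotated genes (x) in all 72 libraries, coloured by tissue. Right, Pln (log axis, y) against Myh6 (x, linear to 0.1 CPM and then log) in the 36 brain libraries. The lowest Slc8a1 value of ventricles, cerebellum and cortex sits at the lowest share of reads outside genes of its tissue, and 2 brain libraries of mouse 8 lie alone at the upper right.

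The Gnb5-/- cortical and cerebellar estimates of Slc8a1 and Atp2a2 moved toward 0 without these libraries. In cortex the log2 fold change between Gnb5-/- and Gnb5+/+ mice was -0.71 (SE 0.53, adjusted p = 0.50), and it was -0.46 without replicate 3, -0.52 without replicate 5 and -0.22 without both. In cerebellum it was -0.35 (SE 0.45, adjusted p = 0.71), and -0.10 without replicate 2. None of these passed the test. For Atp2a2 the cortical log2 fold change was -0.24 (SE 0.15, adjusted p = 0.48), and -0.12 without replicate 3, -0.19 without replicate 5 and -0.035 without both. In cerebellum Atp2a2 was at -0.15 (SE 0.17, adjusted p = 0.68), and at -0.011 without replicate 2. Cerebellar replicate 2 also held the highest Sln (2.57 CPM beside at most 0.879 CPM in the other 11) and Casq1 (1.13 CPM beside at most 0.395 CPM) of its tissue.

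As a description of shape, the protein coding genes whose mean log2 CPM followed each member most closely over the 12 groups were sought among 16137 genes. Pearson r was at least 0.991 throughout, over points that span heart and brain and share mice. For Sln they were P3h1, Hamp and Ucp2 (r = 0.996, 0.994 and 0.994), and for Slc8a1 Pard3, Lrp5 and the cardiac ryanodine receptor gene Ryr2 (0.998, 0.998 and 0.996). For Atp2a2 they were Loxl2, Itgb1bp2 and Sec31b, for Pln Asb14, Mov10l1 and Lmod3, for Casq1 Yipf7, Pyurf and Tcea3, for Casq2 Dhrs11, Trmt2b and Clcc1, and for Trdn Rab20, Cox6a2 and Hfe2. For Asph they were Tmem253, Phykpl and Sparc, for Hrc Ppp1r3a, Des and Slfn5, and for Jph2 Smyd1, Xirp2 and Rcsd1.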

How the data were processed

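The deposited files held raw counts of reads per gene, 1 column per library without normalization, which the authors made from single-end stranded total RNA libraries. Per the labels and the study's methods, reads were trimmed, cleared of ribosomal and low-complexity reads, aligned to GRCm38 and counted on genes of Ensembl 92, and the submitters' processing notes name cutadapt 1.8, STAR 2.5.3a and HTSeq 0.9.1. The strand setting of the counting was not given in the sources used here. Rows that name no gene were left out of library sizes and tests, and reads outside genes took between 2.85% and 17% of a library's uniquely aligned reads. Of 53715 identifiers, 53620 matched GENCODE M21, which gave symbols, exons and 1-based coordinates.

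Groups came from the sample labels. Counts were scaled by TMM, filtered with filterByExpr (minimum count 10) and tested with edgeR 4.0.16 (glmQLFit, glmQLFTest, R 4.3.3), with Benjamini-Hochberg adjustment over all genes tested and a threshold of 0.05. Genotypes were compared within a tissue under a design of genotype alone. Chambers, and heart against brain, were compared with the mouse as a block. The labels give the mouse of each library, and deviations of the same mouse in atria and ventricles correlated in 18 of 18 mice (r 0.104 to 0.411). SE is the fold change over the square root of F. Correlations used log2 CPM with a prior count of 2 and 100000 permutations, or exact ones for n = 6. DESeq2 1.42.0, RLE factors, library totals, no filter, at least 10 counts in every library, the other choice of block and fits of fewer libraries were alternatives. Library totals without mitochondrial genes and fits without libraries that stood apart were added after the data were seen.

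In counts simulated for Gnb5-/- against Gnb5+/+ atria (16181 genes, 200 changed), 127 of the 200 were recovered by edgeR, with 3 false calls. DESeq2 recovered 141, with 30 false calls. For ventricles, cerebellum, the Gnb5+/+ chambers and the Gnb5-/- effect between chambers edgeR recovered 143, 90, 141 and 84 of 200. The planted changes were larger than the atrial estimate of every member, so these rates do not measure power for changes that small. The 10 genes, the list of 50 and the marker lists were chosen with earlier results of these data known. Named genes are the 10 members, the 3 listed genes of smallest adjusted p per comparison and the 3 genes of most similar pattern, and exceptions are stated. Protein levels, isoforms and sequences of proteins were not analysed here.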

Additional observations from a re-analysis of the deposited data

Results flagged for a closer look

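In 24 of the 120 combinations of gene and group, the library at one end lay far from the other 5 by Dixon's criterion, where chance flags about 1 in 20 groups. Of these, 14 were in brain. The libraries of Gnb5+/+ mouse 8 gave 9: in cerebellum Pln at 10.4 CPM, Trdn at 0.382, Hrc at 0.945 and Jph2 at 0.909, and in hippocampus Pln at 36.1, Casq2 at 7.13, Trdn at 1.10, Hrc at 4.23 and Jph2 at 2.54, all the highest of their group. Gnb5-/- cerebellar replicate 2 gave 4: Atp2a2 at 588.7 CPM (next 1191) and Slc8a1 at 0.912 (next 13.6) were the lowest, and Sln at 2.57 and Casq1 at 1.13 the highest. In Gnb5+/+ cortex Pln was at 1.99 CPM in replicate 4 (next 1.47).

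In ventricles, Gnb5+/- replicate 4 gave 3: Atp2a2 at 12890 CPM (next 18750), Slc8a1 at 118 (next 347) and Hrc at 1572 (next 1269). Pln was at 9766 CPM in Gnb5+/+ replicate 3 (next 8125). In atria, Trdn was highest at 269 CPM in Gnb5+/+ replicate 2 (next 178), at 251 CPM in Gnb5+/- replicate 2 (next 162) and at 220 CPM in Gnb5-/- replicate 1 (next 161). Sln was at 1497 CPM in Gnb5+/- atrial replicate 2 (next 1322), Asph at 291 CPM in Gnb5-/- atrial replicate 2 (next 272) and Hrc at 538 CPM, the lowest, in Gnb5+/+ atrial replicate 3 (next 638).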

How the results depend on the processing

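Of the counts of members called, 131 of 134 alternative values stayed within 1.5 times the reported count, and of 770 alternative fold changes 711 kept their direction and their side of the threshold, 13 lost the call, 6 gained it and 40 changed sign. Most reported counts were 0, and a count can stay near its value while the genes in it change. On library totals in Gnb5+/- mice, Atp2a2 was still called between chambers, but in the opposite direction. With library totals in place of TMM, 5, 7 and 5 members were called between chambers in Gnb5+/+, Gnb5+/- and Gnb5-/- mice, where 69.1%, 78.3% and 75.4% of all genes tested were. In each genotype Sln and Asph were then called higher in atria and Pln and Hrc lower. The log2 fold changes that then changed sign between chambers were, in Gnb5+/+, Gnb5+/- and Gnb5-/- mice, Atp2a2 at 0.11, 0.33 and 0.18, Casq2 at 0.14, 0.11 and 0.046, Trdn at 0.011, 0.026 and 0.14, and Slc8a1 at 0.31, 0.41 and 0.29, with Asph at 0.58 in Gnb5+/- and 0.55 in Gnb5-/- mice. Between Gnb5-/- and Gnb5+/+ mice they were, in atria, Atp2a2 at 0.072, Sln at 0.075, Trdn at 0.00065, Asph at 0.13, Jph2 at 0.061 and Slc8a1 at 0.090, and in ventricles Hrc at 0.015 and Jph2 at 0.049. With totals outside mitochondrial genes, Slc8a1 was at 0.064 in Gnb5+/+ and 0.048 in Gnb5+/- mice, and Asph at 0.23 in Gnb5+/- and 0.25 in Gnb5-/- mice. The fold change of Asph between chambers, near 0, also changed sign with at least 10 counts in every library (0.0063 in Gnb5+/-, 0.047 in Gnb5-/- mice) and, in Gnb5-/- mice, with DESeq2 (0.016), RLE factors (0.015), no filter (0.019), only the 12 libraries of the genotype (0.0048) and without Gnb5-/- atrial replicate 4 (0.012; -0.0038 without Gnb5+/- ventricular replicate 4). The difference of the Gnb5+/- effect on Sln between chambers, at -0.0031, was 0.070 with DESeq2, 0.0065 with at least 10 counts in every library, 0.061 with totals outside mitochondrial genes, 0.19 with library totals, 0.0092 without a filter and 0.19 without Gnb5+/- ventricular replicate 4 (-0.0012 without Gnb5-/- atrial replicate 4). Without a filter 1 member, Sln, was called for the Gnb5-/- effect between chambers, beside 97 of 31506 genes. Pln in Gnb5-/- cerebellum was at 0.15 without replicate 6 of Gnb5+/+ cerebellum and at -1.43 without replicate 2 of Gnb5-/- cerebellum, and the correlation of Casq1 with skeletal markers in atria was 0.25 without the 2 farthest libraries. The cause of these changes was not tested.

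Replicate numbers shared by genotypes join different mice, and r between the deviations of such mice ran from -0.242 to 0.148, with every pair over 0.1 for 0 of 30 numbers. With the replicate block, 0 members were called in each of the 9 genotype comparisons, as without it. Without the block of the mouse, 8, 8 and 7 members were called between chambers in Gnb5+/+, Gnb5+/- and Gnb5-/- mice, beside 52.4%, 57.7% and 56.0% of all genes (Casq1 in Gnb5-/- at -0.70, adjusted p = 0.0716), and all 10 against brain. Members at a few counts in brain, Trdn and Sln among them, are limited by depth.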
